A study of Homo sapiens with 30 samples.

Results

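The 36 genes described here belong to the amino acid response: ATF4 and 5 other transcription factors of this response, 5 signalling and stress effectors, 8 enzymes of amino acid and one-carbon metabolism, 5 amino acid transporters and 12 cytosolic aminoacyl-tRNA synthetases. They were listed by name, without a cut on a measured value but with earlier results of these data known, and all 36 were found among the 23710 gene symbols of the count tables and the 23616 of the FPKM tables. mRNA was sequenced in 30 samples, 3 in each of 10 groups, from the human prostate cancer lines V16D and MR49F. V16D is a castration-resistant derivative of LNCaP. MR49F descends from the same cells and is resistant to the androgen receptor antagonist enzalutamide. It carries the androgen receptor mutation F877L, beside receptor copies without this mutation. In medium with full fetal bovine serum (FBS), both lines received vehicle or 10 μM enzalutamide for 24 h, after a period without the enzalutamide in which MR49F is usually kept. In a separate experiment MR49F cells were held for 72 h in charcoal-stripped serum (CSS), which is depleted of steroids, and then received for 24 h vehicle, 10 μM enzalutamide, 1 nM dihydrotestosterone (DHT, a natural androgen), 500 nM JQ-1 (an inhibitor of the BET bromodomain proteins), or JQ-1 on top of either enzalutamide or DHT at those doses. Each line stands for itself, so a difference between them cannot be told apart from any other difference between these cultures.

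ATF4 is a basic leucine zipper transcription factor whose protein is made when phosphorylation of the initiation factor eIF2 slows general translation. The kinase GCN2 phosphorylates eIF2 when uncharged tRNAs collect, and PERK does so when misfolded proteins collect in the endoplasmic reticulum. With partners of the C/EBP family, ATF4 binds C/EBP-ATF response elements near genes that import amino acids, make asparagine, serine, glycine and proline, supply one-carbon units and charge tRNAs. mRNA was measured here, and neither ATF4 protein nor eIF2 phosphorylation.

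The core of a C/EBP-ATF response element, TGATGNAA on either strand (TTNCATCA where it lies on the strand opposite to the gene), was looked for in the RefSeq promoter windows of 300 bases (GRCh38.p14). No other motif was searched. It stood in 1270 of 35116 windows of this length (3.62%) and in 14 of the 50 windows that belong to the genes described here, 1 window each in 14 of the 30 genes with an entry. PSPH, SHMT2, PYCR1, SLC7A11, LARS and YARS had no entry. Stretches of 30 bases around the motif, written 5′ to 3′ on the strand of the gene with the motif in capitals, are shown for 8 genes that carry the results below. ATF3 and ASNS rose with JQ-1 in every setting, and the other 6 fell when JQ-1 was added to DHT.
ATF3: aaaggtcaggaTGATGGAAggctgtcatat
ASNS: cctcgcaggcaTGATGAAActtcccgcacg
CHAC1: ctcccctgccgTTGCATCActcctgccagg
SLC1A5: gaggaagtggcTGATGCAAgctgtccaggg
GARS: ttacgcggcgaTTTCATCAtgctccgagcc
IARS: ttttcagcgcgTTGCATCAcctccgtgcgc
MARS: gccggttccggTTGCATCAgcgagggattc
TARS: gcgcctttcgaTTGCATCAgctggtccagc
In the order of the lines, these stretches lie at chr1:212565205-212565234 (plus strand), chr7:97872458-97872487 (minus), chr15:40953251-40953280 (plus), chr19:46784893-46784922 (minus), chr7:30594834-30594863 (plus), chr9:92293692-92293721 (minus), chr12:57488053-57488082 (plus) and chr5:33440956-33440985 (plus). Counted from the start of the transcript, the first motif base lay at -191 in ATF3, -68 in ASNS, -209 in CHAC1, -97 in SLC1A5, -33 in GARS, -13 in IARS, -4 in MARS and 2 in TARS. The same letters thus stood in genes that rose and in genes that fell with JQ-1, and a match describes the letters only.

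Reads counted on genes numbered 13170504 to 21154962 per library in FBS and 982130 to 1813262 in CSS, which is 73.0 to 77.8% and 5.13 to 7.66% of the reads counted. CSS values therefore rest on fewer reads. The CSS counts also ran high, relative to FPKM, for genes with an exon on the opposite strand. The CSS-against-FBS shift of counts relative to FPKM had a median log2 value of -0.32 over 4852 genes without such an exon and 0.51 over the 91 genes with at least 50% of their exon bases covered in this way. Among the 36 genes the shift exceeded 1 in DDIT3 (1.98, 31.6% of exon bases covered, mostly by MARS), ATF5 (1.68, 19.5%, NUP62) and CEBPB (1.02, 12.6%, CEBPB-AS1), and the CSS counts of these 3 genes are the most uncertain. Of the 36 genes 17 share some exon bases with a gene on the opposite strand. The library kit keeps the strand, and whether the CSS reads were counted with the strand setting it needs was not settled here, so this doubt holds for every CSS count and CPM value below. Each CSS comparison is therefore given from counts with edgeR's quasi-likelihood test, and the number of genes called is given beside it from FPKM with limma. Fold changes of single genes are from counts unless FPKM is named. In FBS, replicate 1 of MR49F with vehicle stood apart, with a chi-square per degree of freedom of 9.87 and 11.6 against its group, where the other 28 pairs of replicates lay at 1.13 to 2.82. The 7 luminal prostate markers checked summed to 955 to 2980 FPKM in each library, and 10 markers of basal cells, blood, fibroblasts and endothelium to 0.775 to 2.64 FPKM. KLK3 and TMPRSS2, targets of the androgen receptor, changed with enzalutamide by log2 values of -1.89 and -2.48 in V16D in FBS and 1.54 and 2.06 in MR49F in CSS, and with DHT in CSS by 2.28 and 3.07. The study calls the 3 samples of a group biological replicates, while the labels speak of plating in triplicate. The p-values measure the spread between these samples, which may be technical. In bulk RNA, fewer cells that express a gene and less of its mRNA per cell cannot be told apart.

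Levels are compared between genes as FPKM, which is scaled to transcript length. In V16D with vehicle the highest group means were those of PHGDH (201 FPKM), the first enzyme of serine synthesis, ATF4 (175 FPKM) and SHMT2 (143 FPKM), which makes glycine in mitochondria. The lowest were SLC7A5 (1.80 FPKM), a large neutral amino acid transporter, and VLDLR (3.49 FPKM), a lipoprotein receptor. In MR49F with vehicle, ATF4 (261 FPKM), PHGDH (240 FPKM) and TARS, the threonyl-tRNA synthetase (183 FPKM), led in FBS, and PHGDH (167 FPKM), ATF4 (145 FPKM) and TARS (109 FPKM) led in CSS. The pair of sera were run in separate experiments, so serum cannot be told apart from experiment and its effect was not tested. Side by side, the mean FPKM of MR49F with vehicle in CSS was below that in FBS for 31 of the 36 genes. The same held for 6032 of 11594 genes of at least 1 FPKM in both. The median ratio was 0.594 over the 36 genes and 0.979 over the 11594. The ratio ran from 0.358 for GARS, the glycyl-tRNA synthetase, to 1.5 for VLDLR. For 11 of the 36 genes, SLC7A5, PSPH, PSAT1, MTHFD2, ASNS and ATF4 among them, the annotation also lists pseudogenes of the same name, and reads that such copies share make their levels uncertain.

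**Figure D1:**
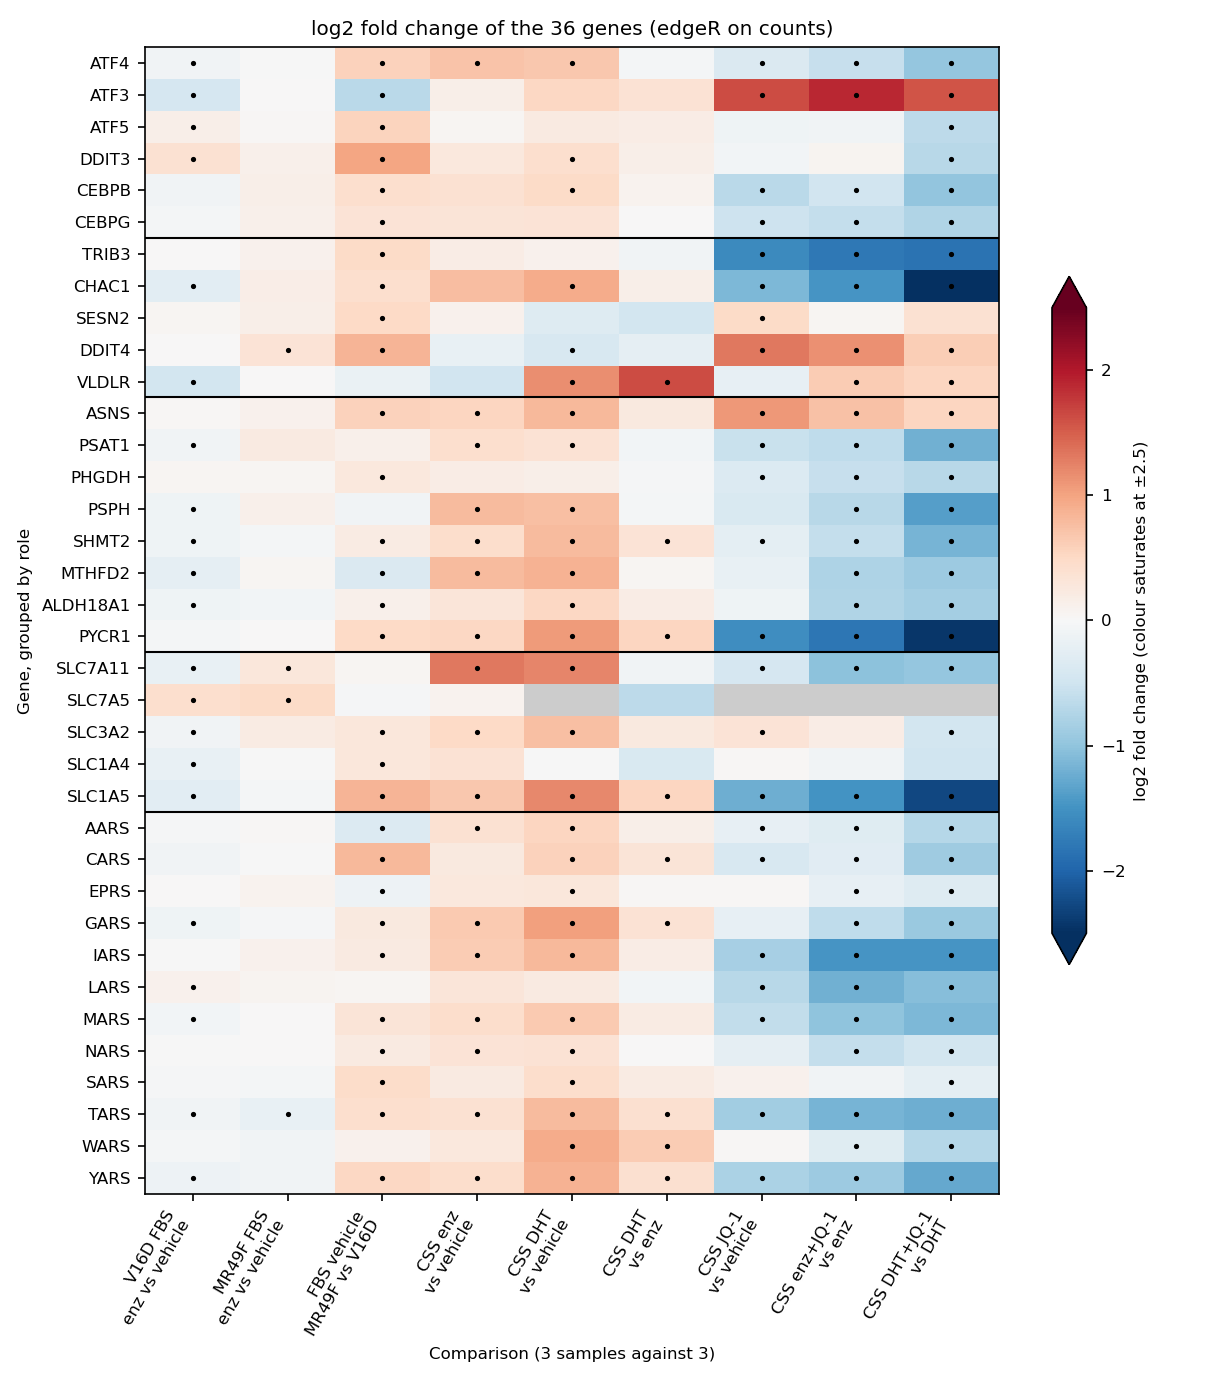
Colour shows the log2 fold change of each of the 36 genes (rows, grouped by role) in 9 comparisons of 3 samples against 3 (columns), from edgeR on counts, with red higher, blue lower and grey not tested. Black dots mark an adjusted p of at most 0.05. Enz is enzalutamide. The enzymes, transporters and synthetases are mostly red with enzalutamide or DHT in CSS and mostly blue where JQ-1 was added, and ATF3, DDIT4 and ASNS are red in all 3 JQ-1 columns.

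In FBS with vehicle, more of the 36 genes were higher in MR49F than lower, which did not hold for the further pathway genes given at the end. Of the 36 genes, 25 were higher and 4 lower in MR49F by edgeR, where 31.9% of all 14013 genes tested were higher and 31.8% lower. The median log2 fold change was 0.28 over the 36 genes and -0.0049 over all genes. DDIT3 (CHOP), a stress-induced transcription factor, stood at 9.69, 10.2 and 8.81 CPM (counts scaled to the TMM-normalised library size) in V16D and 19.0, 17.1 and 21.1 CPM in MR49F, a log2 fold change of 0.98 (SE 0.10, edgeR adjusted p = 6.17e-06). SLC1A5, a glutamine transporter, rose from 181, 189 and 184 CPM to 311, 349 and 348 CPM, by a log2 value of 0.86. DDIT4, an inhibitor of mTORC1, stood at 103, 110 and 103 CPM in V16D and 201, 181 and 192 CPM in MR49F. The groups did not overlap for any of these genes. CARS, the cysteinyl-tRNA synthetase, rose from 94.4, 90.6 and 92.6 CPM to 165, 153 and 170 CPM (log2 0.81). ATF4 itself rose from 305, 308 and 299 CPM to 501, 424 and 445 CPM (log2 0.58, SE 0.06, edgeR adjusted p = 5.53e-06). The asparagine synthetase ASNS rose from 268, 276 and 267 to 396, 398 and 422 CPM (0.58, SE 0.05). Neither gene's groups overlapped. ATF3, a stress-induced repressor of the same family, went the other way, from 26.0, 28.5 and 24.9 CPM in V16D to 16.3, 15.8 and 18.1 CPM in MR49F (log2 -0.67). The others that were lower in MR49F were MTHFD2, a mitochondrial one-carbon enzyme (-0.36), AARS, the alanyl-tRNA synthetase (-0.34), and EPRS, the glutamyl-prolyl-tRNA synthetase (-0.13). By role, 5 of 6 transcription factors, 4 of 5 effectors, 5 of 8 enzymes, 3 of 5 transporters and 8 of 12 synthetases were higher. Without replicate 1 of MR49F vehicle, 27 were higher and 4 lower, where 9783 of 14261 genes passed in either direction.

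Enzalutamide in FBS moved these genes little. In V16D 4 of the 36 genes rose and 17 fell, where 18.2% of 14079 genes rose and 19.3% fell, and none of the 36 changed by 1.5-fold. From FPKM with limma, 4 rose and 5 fell, where 2184 and 1524 of 12497 genes did. The log2 fold changes ran from -0.46 for VLDLR to 0.41 for SLC7A5, with a median of -0.076. ATF3 fell from 26.0, 28.5 and 24.9 CPM to 20.6, 19.1 and 19.8 CPM (log2 -0.43, SE 0.07, edgeR adjusted p = 1.3e-09). VLDLR stood at 18.3, 16.6 and 17.3 CPM with vehicle and 14.2, 11.6 and 12 CPM with enzalutamide. SLC1A5 fell to 155, 159 and 147 CPM (log2 -0.27), and MTHFD2 went from 244, 239 and 244 to 218, 208 and 203 CPM (log2 -0.22). SLC7A11, the cystine importer of system xc-, fell by 0.18 on the log2 scale, from 324, 334 and 312 to 301, 279 and 279 CPM. In all of these the groups stayed apart. DDIT3 rose by 0.39, SLC7A5 by 0.41, ATF5, a close relative of ATF4, by 0.14 and LARS, the leucyl-tRNA synthetase, by 0.11.

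In MR49F in FBS, 3 of the 36 genes rose with enzalutamide and 1 fell, where 3.86% of 13927 genes rose and 4.62% fell. DDIT4 rose from 201, 181 and 192 CPM to 236, 244 and 246 CPM (log2 0.34, SE 0.05, edgeR adjusted p = 0.0022). SLC7A5 rose from 9.68, 9.90 and 8.92 to 14.0, 12.1 and 13.7 CPM (0.47), and SLC7A11 from 302, 322 and 377 to 419, 397 and 402 CPM (0.28). TARS fell from 698, 621 and 638 to 581, 568 and 566 CPM (-0.19). From FPKM with limma DDIT4 and SLC7A5 passed, where 320 of 12496 genes rose and 246 fell. SLC7A11 and TARS did not pass from FPKM (limma adjusted p = 0.117 and 0.123). The samples of the groups did not overlap for these 4 genes, and vehicle replicate 1 was the lowest vehicle sample for SLC7A11 and the highest for DDIT4 and TARS. Without that replicate 8 rose and 2 fell, where 2533 of 14226 genes passed in either direction. Without enzalutamide replicate 1 or replicate 3, 1 gene passed. DDIT4 was the gene that kept its call in all 6 fits that left out a sample.

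The difference between the lines in their response to enzalutamide was tested as an interaction over the 12 FBS samples. It was positive, meaning higher in MR49F than in V16D, for 9 of the 36 genes and negative for none, where 4.19% of 14471 genes were positive and 2.76% negative. At an unadjusted p under 0.05 edgeR gave 12 positive and 0 negative, and DESeq2 called 8 positive and 0 negative, without a share over all genes to read them against. On FPKM limma called 3 and 0, where it called 477 positive and 309 negative of 13011 genes. The 9 genes were ATF3, DDIT4, VLDLR, PSAT1, PSPH, MTHFD2, SLC7A11, SLC3A2 and SLC1A5. For SLC7A11 the difference was 0.46 (SE 0.08, edgeR adjusted p = 0.0009), from a fall in V16D and a rise in MR49F. They were 1 transcription factor, 2 effectors, 3 enzymes and 3 transporters. Without replicate 1 of MR49F vehicle 12 were positive, where 1523 of 14674 genes passed in either direction. Without MR49F enzalutamide replicate 3, V16D enzalutamide replicate 3 or V16D vehicle replicate 2, 3 were positive, and DDIT4 and SLC7A11 kept their call in every fit that left out a sample.

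In CSS, where androgen is scarce, enzalutamide raised a large part of the response in MR49F. Of the 36 genes 17 rose and none fell by edgeR, where 4.38% of 11131 genes rose and 2.87% fell. At an unadjusted p under 0.05 edgeR gave 25 higher and 1 lower, and DESeq2 called 9 higher and 0 lower. The shares over all genes for these counts are not given, so they have no background here. On FPKM limma called 30 higher and 1 lower, where it called 2325 higher and 2348 lower of 12178 genes. Counts and FPKM agreed in direction and call for 16 genes, where 7.01% of all genes did. The median log2 fold change was 0.37 over the 36 genes and -0.0012 over all genes. By role, 6 of 8 enzymes, 3 of 5 transporters, 7 of 12 synthetases and 1 of 6 transcription factors rose, while the 5 effectors did not pass from counts and from FPKM 2 were higher and 1 lower. Without vehicle replicate 1 the count of genes that rose was 9, and ATF4, MTHFD2, SLC7A11, SLC1A5, GARS and IARS kept their call in every fit that left out a sample. From counts DHT raised more of the 36 genes, and also a larger share of all genes, while from FPKM 30 were higher with either ligand. DHT was measured against the same 3 vehicle samples, so the values of the ligands are set side by side and share their controls. Of 35 genes tested (SLC7A5 had too few reads), 26 rose and 1 fell with DHT, where 19.4% of 11004 genes rose and 18.1% fell. Counts and FPKM agreed for 26 genes, 25 higher and 1 lower, where 35.3% of all genes did. On FPKM limma called 30 higher and 4 lower, where it called 3488 higher and 5237 lower of 12180 genes. The median was 0.58 over the genes tested and -0.012 over all genes. All 17 genes that rose with enzalutamide also rose with DHT, and the matching share over all genes was not computed.

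ATF4 mRNA stood at 232, 226 and 234 CPM with vehicle, 395, 376 and 362 CPM with enzalutamide and 354, 368 and 396 CPM with DHT. Both ligand groups lay above every vehicle sample and overlapped each other. The log2 fold changes were 0.71 (SE 0.09, edgeR adjusted p = 2.67e-05) with enzalutamide and 0.67 (SE 0.09, edgeR adjusted p = 1.35e-06) with DHT. CEBPG, a C/EBP partner of ATF4, did not pass from counts with either ligand (0.32 and 0.34), and passed from FPKM with both. CEBPB, another C/EBP factor, and DDIT3 passed with DHT from counts (0.47 and 0.43). DDIT3 went the other way from FPKM (-0.38, limma adjusted p = 0.0071), so its direction depends on the measure. ATF5 and ATF3 did not pass from counts with either ligand.

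Among the effectors, CHAC1, which degrades glutathione, stood at 8.69, 6.82 and 10.3 CPM with vehicle, 13.8, 16.2 and 13.8 CPM with enzalutamide and 21.0, 14.2 and 14.3 CPM with DHT. Both ligand groups lay above vehicle. From counts the change passed with DHT (log2 0.93, edgeR adjusted p = 0.0148) but not with enzalutamide (0.77, edgeR adjusted p = 0.115). From FPKM CHAC1 rose alike with both, by 0.73 with enzalutamide and 0.74 with DHT (limma adjusted p = 0.000104 and 1.52e-05). VLDLR separated the ligands. It stood at 23.2, 22.5 and 24.5 CPM with vehicle, 15.5, 17.4 and 17.5 CPM with enzalutamide and 55, 49.5 and 53.6 CPM with DHT. The rise with DHT was 2.23-fold (log2 1.16, SE 0.17, edgeR adjusted p = 4.03e-06), and the value with enzalutamide, below every vehicle sample, did not pass (-0.48, edgeR adjusted p = 0.196). DDIT4 was the gene that fell with DHT from counts, from 149, 155 and 170 CPM to 133, 113 and 118 CPM (-0.39, edgeR adjusted p = 0.0054). TRIB3, a pseudokinase that restrains ATF4, and SESN2, an inhibitor of mTORC1 that senses leucine, did not pass from counts with either ligand. From FPKM TRIB3 rose with both (0.26 with enzalutamide and 0.28 with DHT). SESN2 fell from FPKM with DHT (-0.45, limma adjusted p = 8.69e-05) and did not pass with enzalutamide.

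Most enzymes rose with both ligands. MTHFD2 stood at 66.6, 51.8 and 54.5 CPM with vehicle, 108, 100 and 92.1 CPM with enzalutamide and 113, 111 and 97.1 CPM with DHT. SHMT2 stood at 156, 148 and 146 CPM, then 214, 207 and 188 CPM, then 257, 253 and 281 CPM. In both genes the 3 vehicle samples lay below all 6 ligand samples. The log2 fold changes of MTHFD2 were 0.79 (SE 0.13, edgeR adjusted p = 0.00042) with enzalutamide and 0.86 with DHT, and those of SHMT2 0.44 and 0.79. PSPH, the last enzyme of serine synthesis, stood at 23.8, 36.8 and 25.3 CPM with vehicle, 52.4, 52.9 and 39.6 CPM with enzalutamide and 50.0, 49.5 and 45.7 CPM with DHT, again without overlap between vehicle and ligand. ASNS stood at 64.9, 76.4 and 67.9 CPM, then 99.6, 106 and 99.4 CPM, then 129, 116 and 124 CPM, and its log2 fold changes were 0.55 and 0.80. PYCR1, the last enzyme of proline synthesis, stood at 208, 173 and 197 CPM with vehicle, 335, 267 and 226 CPM with enzalutamide and 384, 388 and 459 CPM with DHT. Its rise with DHT was 2.1-fold (log2 1.07, SE 0.10, edgeR adjusted p = 3.31e-09). PSAT1, which acts between PHGDH and PSPH, rose with both (0.42 and 0.36). ALDH18A1, the first enzyme of proline synthesis, passed from counts with DHT (0.51) but not with enzalutamide (0.31). From FPKM it passed with both (0.36 with enzalutamide and 0.53 with DHT). PHGDH passed with neither (0.18 and 0.15 from counts).

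The largest rise with enzalutamide among the 36 genes was that of SLC7A11. It stood at 54.5, 45.0 and 43.4 CPM with vehicle, 132, 123 and 97.6 CPM with enzalutamide and 112, 111 and 120 CPM with DHT. These are rises of 2.47-fold (log2 1.31, SE 0.14, edgeR adjusted p = 3.64e-06) and 2.35-fold (1.23, SE 0.13, edgeR adjusted p = 2.07e-08). SLC1A5 stood at 119, 118 and 108 CPM, then 200, 193 and 151 CPM, then 295, 247 and 267 CPM, so that the 3 groups were ordered without overlap. SLC3A2, the heavy chain that SLC7A5 and SLC7A11 need at the cell surface, stood at 63.7, 66.8 and 64.0 CPM with vehicle, 96.2, 88.3 and 88.4 CPM with enzalutamide and 114, 108 and 111 CPM with DHT. It rose with both (0.49 and 0.75). SLC1A4, a transporter of serine and alanine, did not pass from counts (0.37 and -0.0076) and was higher from FPKM with both ligands. SLC7A5 rested on 8 to 16 reads per vehicle library, and from FPKM it fell with DHT (-0.42, limma adjusted p = 6.33e-05) and did not pass with enzalutamide.

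Of the 12 synthetases, each of which loads 1 amino acid on its tRNA or, for EPRS, both glutamate and proline, 7 rose from counts with enzalutamide and 11 with DHT. From FPKM 11 and 12 rose. GARS stood at 129, 127 and 136 CPM with vehicle, 211, 193 and 215 CPM with enzalutamide and 243, 267 and 295 CPM with DHT. Its 3 groups did not overlap, and its log2 fold changes were 0.66 (SE 0.10, edgeR adjusted p = 0.00023) and 1.03 (SE 0.10, edgeR adjusted p = 1.07e-08). IARS, for isoleucine, stood at 149, 154 and 138 CPM, then 235, 233 and 213 CPM, then 255, 236 and 294 CPM. TARS stood at 271, 258 and 255 CPM, then 370, 329 and 321 CPM, then 443, 445 and 489 CPM. YARS, for tyrosine, stood at 116, 128 and 114 CPM, then 181, 145 and 161 CPM, then 225, 208 and 227 CPM. All ligand samples of these genes exceeded all vehicle samples, and for TARS and YARS all DHT samples exceeded all enzalutamide samples. WARS, for tryptophan, stood at 96.2, 84.6 and 71.1 CPM with vehicle, 113, 97.6 and 94.8 CPM with enzalutamide, and 153, 168 and 166 CPM with DHT. From counts the vehicle and enzalutamide groups overlapped and that change did not pass (0.27), while the change with DHT did (0.92). From FPKM WARS rose with both ligands, by 0.27 with enzalutamide (limma adjusted p = 0.0033) and 0.64 with DHT. MARS, for methionine, stood at 129, 142 and 133 CPM, then 188, 177 and 179 CPM, then 219, 185 and 238 CPM, and rose with both ligands (0.43 and 0.65). AARS and NARS, for asparagine, also rose with both, by 0.34 to 0.55, but from FPKM NARS did not pass with enzalutamide (0.14, limma adjusted p = 0.065). CARS, EPRS and SARS, for serine, passed with DHT alone from counts, and from FPKM with both ligands. LARS passed with neither from counts (0.30 and 0.23).

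**Figure D2:**
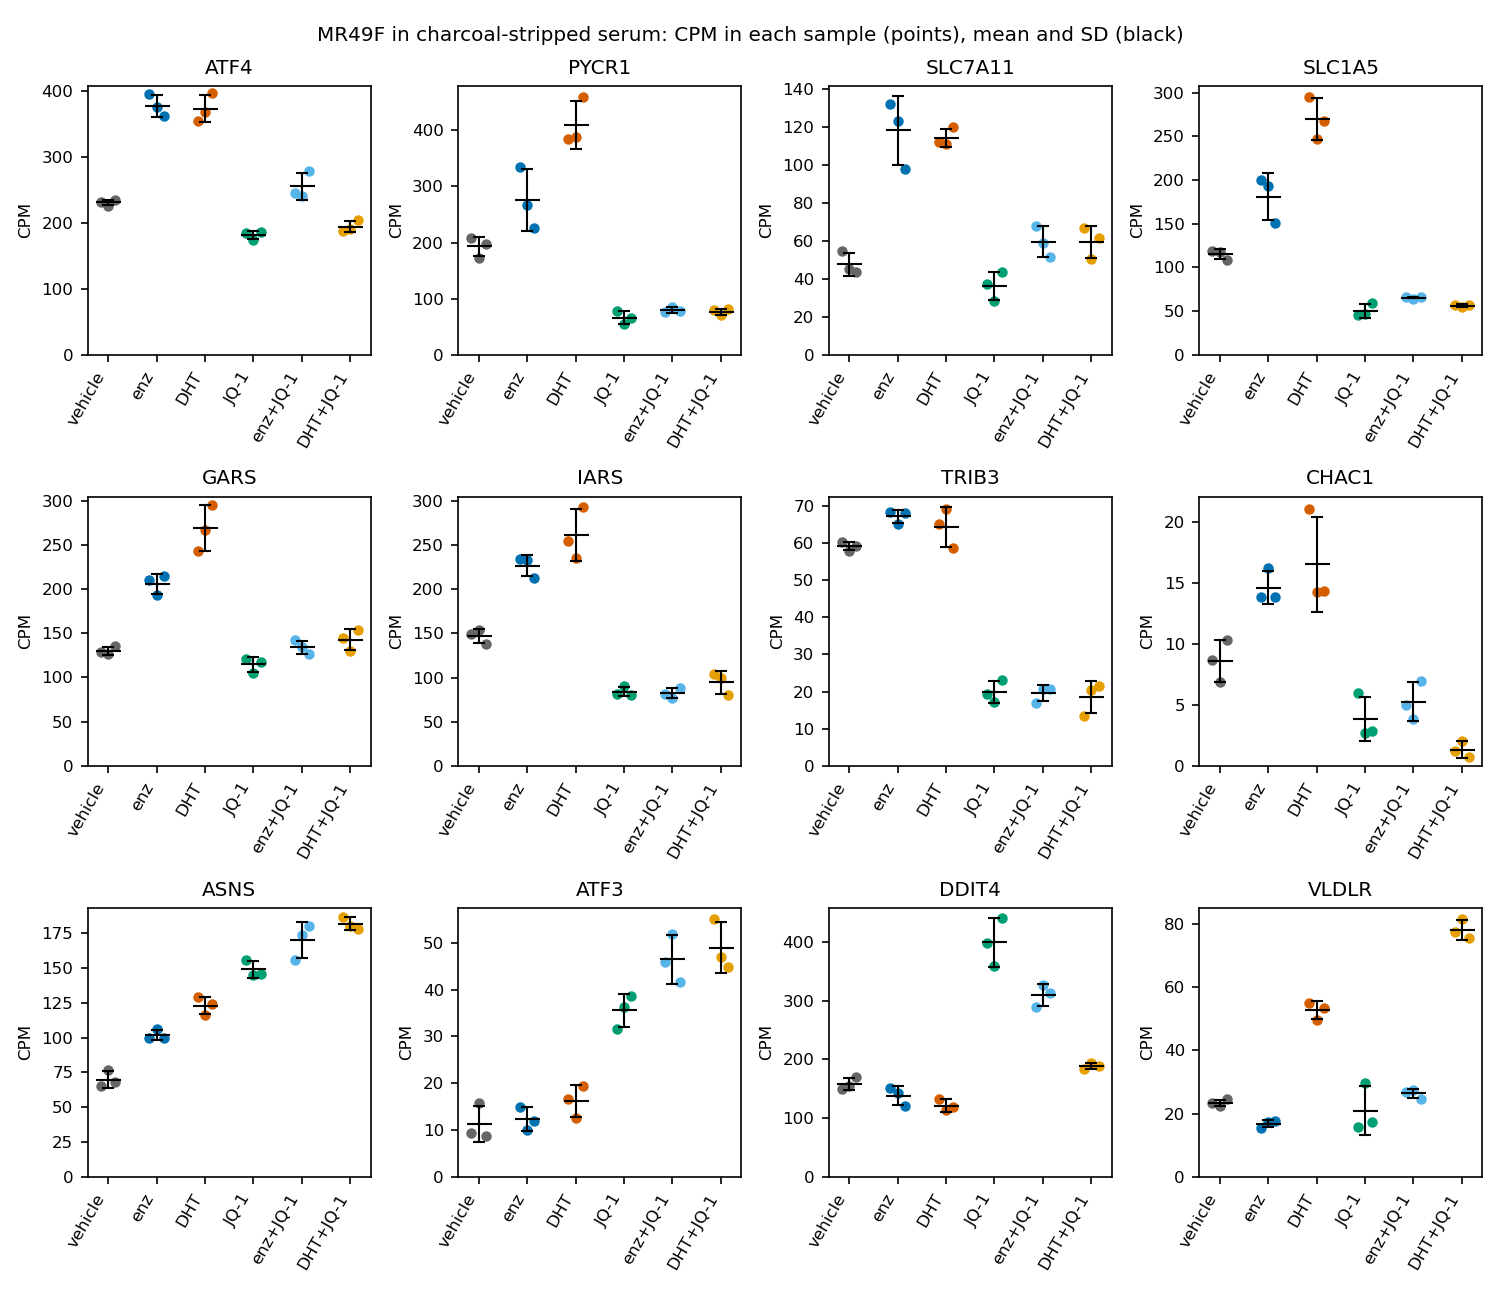
Points show CPM in each of the 3 samples of the 6 MR49F groups in CSS, for 12 of the genes, with the mean and SD in black and each axis starting at 0. Enz is enzalutamide. In ATF4, PYCR1, SLC7A11, SLC1A5, GARS and IARS all enzalutamide and DHT samples lie above all vehicle samples, and ASNS, ATF3 and DDIT4 are high where JQ-1 was given.

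DHT and enzalutamide were also compared directly. Of the 36 genes 9 were higher with DHT and none lower by edgeR, where 10.3% of 10916 genes were higher and 9.13% lower. At an unadjusted p under 0.05 edgeR gave 12 higher and 1 lower, and DESeq2 called 6 and 0, again without a share over all genes. On FPKM limma called 12 and 6, where it called 2447 higher and 4376 lower of 12029 genes. Both measures agreed for 8 genes, where they did for 18.6% of all genes. The largest difference was that of VLDLR, 3.09-fold (log2 1.63, SE 0.18, edgeR adjusted p = 8.89e-07). It was followed by WARS (0.64), PYCR1 (0.54), SLC1A5 (0.53), YARS (0.41), TARS (0.40), GARS (0.36), SHMT2 (0.35) and CARS (0.32). SHMT2 did not pass from FPKM (0.12, limma adjusted p = 0.073). For ATF4 the difference was -0.047 with an SE of 0.087, and for SLC7A11 -0.083 with an SE of 0.12. The other genes did not pass from counts. The concentrations were 10 μM and 1 nM, so the comparison is of these doses.

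The enzalutamide response of MR49F differed between the sera. In the interaction over the 12 samples, 16 of the 36 genes responded more in CSS and 1 responded less, where 7.59% of 14178 genes did the former and 3.79% the latter. Counts and FPKM agreed for 16 genes, 15 more and 1 less, where 11.7% of all genes did. On FPKM limma called 22 more and 3 less, where it called 1920 more and 2495 less of 12981 genes. The difference was 1.07 for SLC7A11 (SE 0.16, edgeR adjusted p = 4.98e-05), 0.80 for MTHFD2, 0.77 for ATF4, 0.76 for SLC1A5 and 0.74 for GARS. It passed for 6 of 8 enzymes and 7 of 12 synthetases. DDIT4 was the gene that responded less in CSS (-0.48, SE 0.11, edgeR adjusted p = 0.0059). The sera differ in experiment and depth as well, and these cannot be told apart. Without replicate 1 of MR49F vehicle in FBS, 17 responded more and 1 less, where 1793 of 12042 genes passed in either direction.

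**Figure D3:**
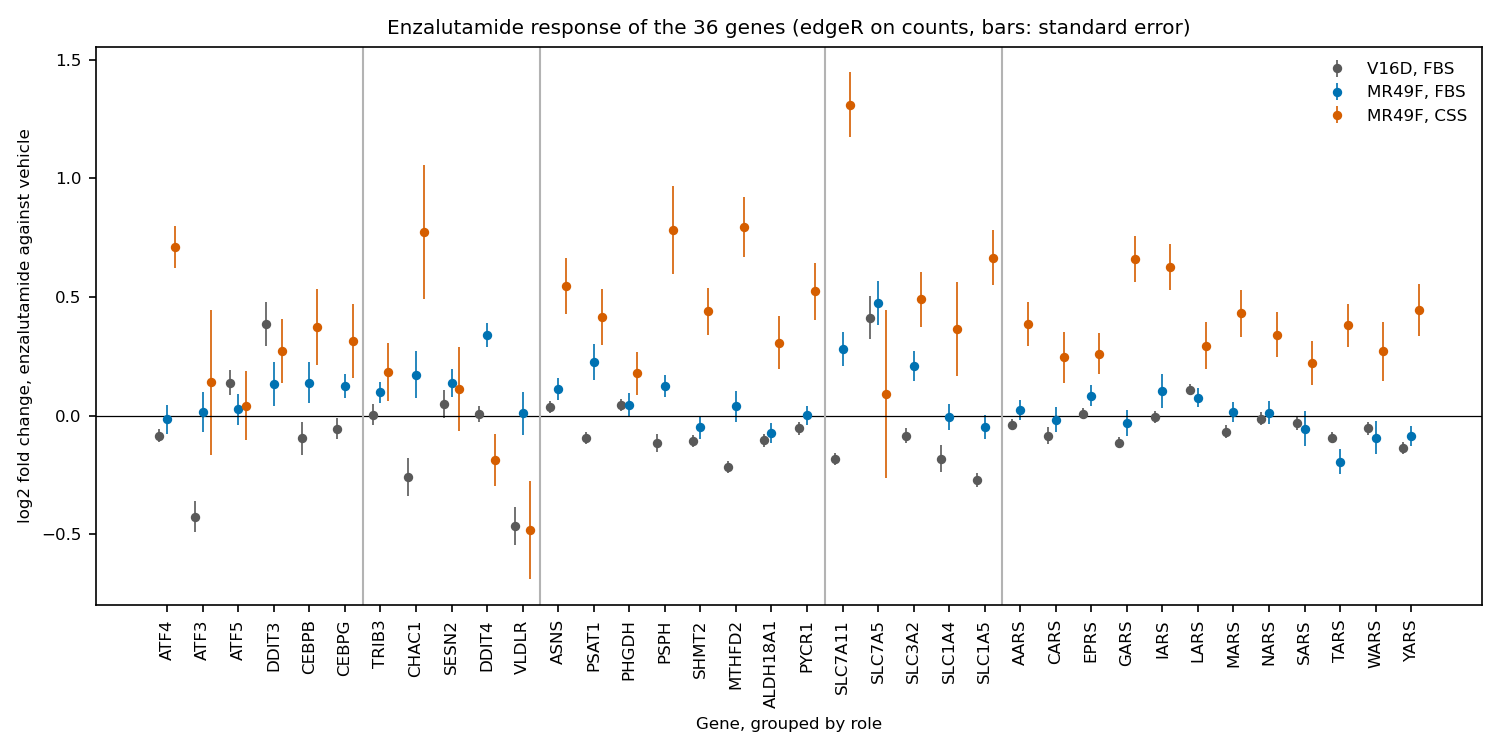
Points show the log2 fold change of enzalutamide against vehicle for the 36 genes (x axis, grouped by role) from edgeR on counts in V16D in FBS (grey), MR49F in FBS (blue) and MR49F in CSS (orange), with bars of 1 standard error. The FBS values lie between -0.46 and 0.47, and in CSS SLC7A11 reaches 1.31 and MTHFD2 0.79.

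JQ-1 alone lowered part of the response in CSS and raised a few genes. Of 35 genes tested 5 rose and 18 fell, where 22.8% of 11332 genes rose and 23.9% fell. Counts and FPKM agreed for 23 genes, where 43.1% of all genes did. On FPKM limma called 8 higher and 26 lower, where it called 3955 higher and 5155 lower of 12203 genes. Added to enzalutamide, JQ-1 raised 4 genes and lowered 25 of 35, where 22% of 10863 genes rose and 23.2% fell, and counts and FPKM agreed for 29 (42.8% of all genes). Added to DHT, it raised 4 and lowered 29 of 35, where 26.7% of 10779 genes rose and 28.0% fell, and counts and FPKM agreed for 31 (51.7% of all genes). In that comparison limma on FPKM called 6 higher and 29 lower, and with enzalutamide 6 and 28. Over all genes it called 4194 higher and 5148 lower of 11856 on DHT, and 3783 and 5378 of 12148 on enzalutamide. The median log2 fold changes were -0.25, -0.59 and -0.89 in the 3 settings, where the medians over all genes lay between -0.0036 and -0.00069. In all 3 settings the same 18 genes fell and the same 3, ATF3, DDIT4 and ASNS, rose. Of the 26 genes that rose with DHT, 24 fell when JQ-1 was added to it, and of the 17 that rose with enzalutamide 15 fell when JQ-1 was added to that. These overlap counts rest on the same DHT and enzalutamide samples on both sides, and their shares over all genes were not computed. They do not show that the reversal is particular to these genes. The values of each comparison are given below.

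ATF4 mRNA stood at 184, 174 and 186 CPM with JQ-1 alone, 245, 241 and 278 CPM with enzalutamide and JQ-1, and 188, 191 and 204 CPM with DHT and JQ-1. Against the groups without JQ-1 it fell by 0.37, 0.58 and 0.96 on the log2 scale (edgeR adjusted p = 0.00037, 5.38e-06 and 6.99e-12). ATF3 stood at 9.27, 15.7 and 8.69 CPM with vehicle and 31.7, 36.4 and 38.6 CPM with JQ-1. It stood at 15, 9.95 and 12 CPM with enzalutamide and 45.9, 52.0 and 41.6 CPM with JQ-1 added. With DHT it stood at 16.7, 12.6 and 19.3 CPM, and at 55.1, 47.0 and 44.9 CPM with JQ-1 added. No sample of a JQ-1 group overlapped its control, and the rises were 3.10-fold, 3.71-fold and 2.97-fold. CEBPB and CEBPG fell in all 3 settings, by 0.47 to 0.98 and by 0.53 to 0.75 on the log2 scale. CEBPB stood at 45.2, 32.1 and 44.2 CPM with vehicle and 28.5, 21.8 and 26.5 CPM with JQ-1, and at 51.4, 57.4 and 62.1 CPM with DHT and 28.1, 27.2 and 32.8 CPM with JQ-1 added. CEBPG stood at 44.3, 44.2 and 39.6 CPM with enzalutamide and 27.9, 28.3 and 29.3 CPM with JQ-1 added, and at 47.8, 53.5 and 32.1 CPM with DHT and 28.7, 24.5 and 26.4 CPM with JQ-1 added. No group of these pairs overlapped its control. ATF5 went from 81.8, 119 and 76.4 to 56.3, 66.7 and 55.6 CPM when JQ-1 was added to DHT, and DDIT3 from 101, 116 and 115 to 70.4, 63.3 and 76.3 CPM. ATF5 and DDIT3 thus fell with JQ-1 added to DHT from counts (-0.65 and -0.69) and rose from FPKM (0.13 and 0.38), so their direction depends on the measure.

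**Figure D4:**
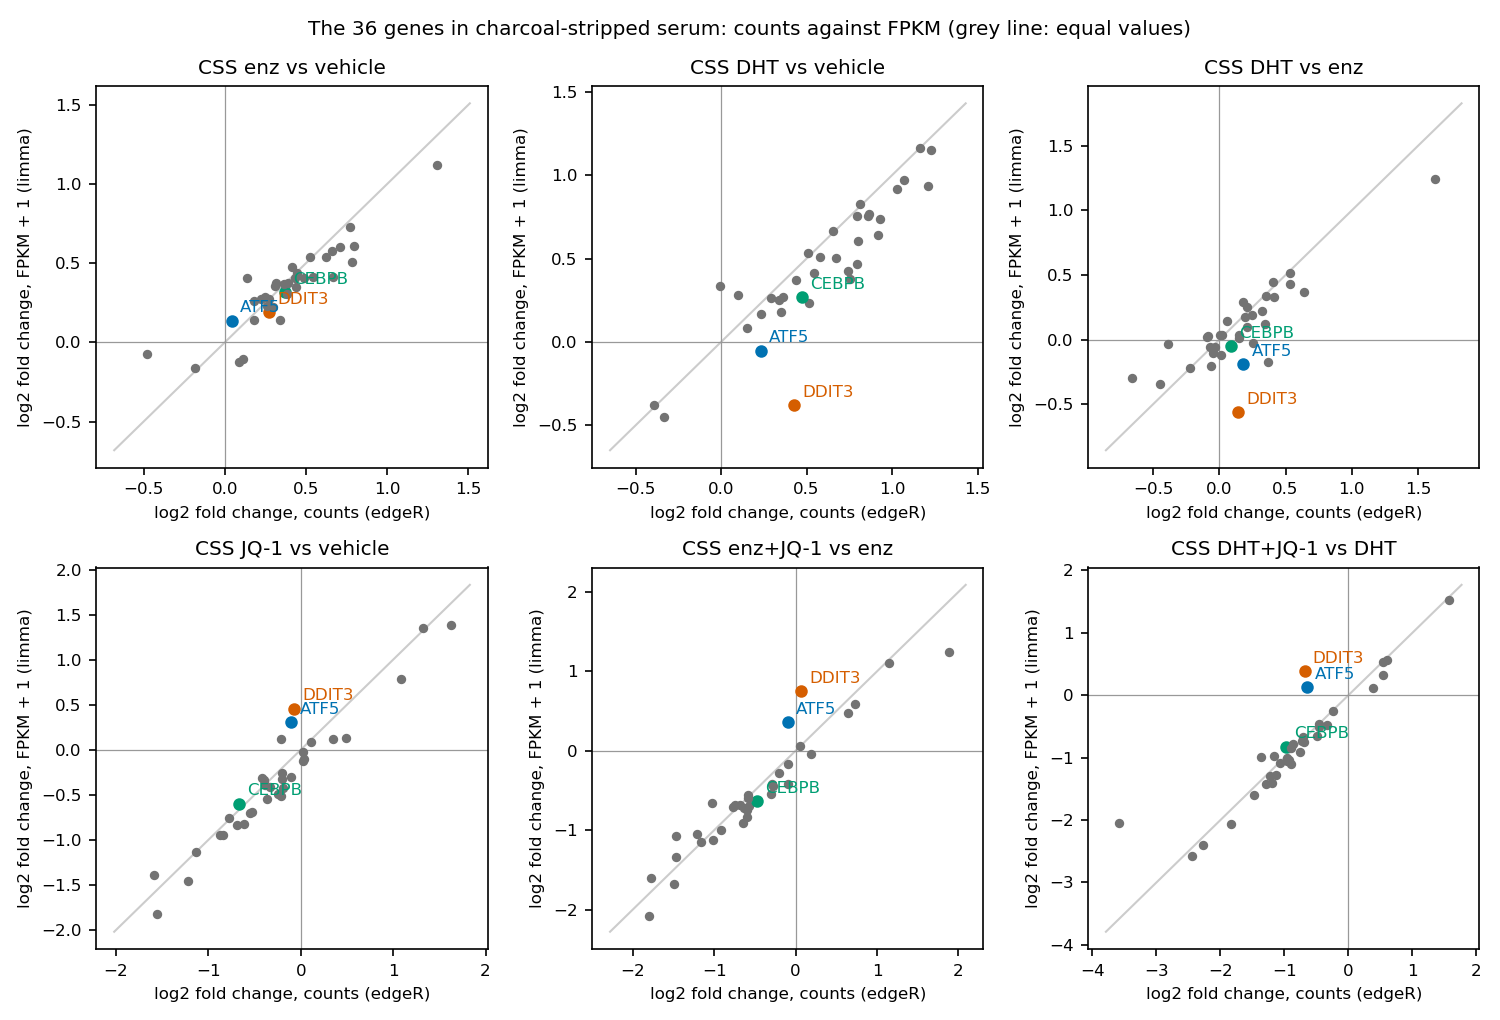
Each panel plots, for 1 comparison in CSS, the log2 fold change from counts (x axis, edgeR) against that from FPKM (y axis, limma on log2(FPKM + 1)) for the genes tested by both, with a grey line at equal values. Enz is enzalutamide. Most genes lie near the line, and DDIT3 and ATF5 lie above it in the JQ-1 panels, where DDIT3 added to DHT is at -0.69 from counts and 0.38 from FPKM.

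Among the effectors, TRIB3 fell in all 3 settings. It stood at 60.3, 58.0 and 59.2 CPM with vehicle, 68.5, 65.3 and 68.1 CPM with enzalutamide and 65.2, 69.2 and 58.6 CPM with DHT. With JQ-1 it stood at 19.4, 17.2 and 23.1 CPM alone, 17.0, 20.6 and 20.8 CPM with enzalutamide and 13.5, 20.4 and 21.4 CPM with DHT. Every JQ-1 sample lay below every sample without JQ-1, and the falls were 3-fold, 3.44-fold and 3.58-fold. CHAC1 dropped to 5.92, 2.65 and 2.88 CPM with JQ-1 alone, 4.99, 3.82 and 6.93 CPM with enzalutamide and JQ-1, and 1.17, 2.04 and 0.713 CPM with DHT and JQ-1. The latter group held 6 reads in all against 67 with DHT, a ratio of 0.0789 after scaling for library size (95% exact interval 0.028 to 0.181, for counting error). DDIT4 rose from 149, 155 and 170 CPM to 398, 358 and 441 CPM with JQ-1 alone, from 151, 142 and 120 to 289, 327 and 312 CPM on enzalutamide, and from 133, 113 and 118 to 184, 194 and 188 CPM on DHT. Its log2 fold changes were 1.32, 1.15 and 0.61. VLDLR stood at 15.6, 29.8 and 17.3 CPM with JQ-1 alone, 26.9, 27.5 and 24.6 CPM with enzalutamide and JQ-1, and 77.4, 81.7 and 75.6 CPM with DHT and JQ-1. It rose with JQ-1 on enzalutamide (0.64) and on DHT (0.55), and did not pass with JQ-1 alone from counts (-0.21), where replicate 2 lay above the vehicle samples and the others below. SESN2 rose with JQ-1 alone (0.48) and did not pass in the other settings.

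The enzymes split into ASNS and the rest. ASNS rose with JQ-1 to 156, 145 and 146 CPM alone, 156, 174 and 180 CPM with enzalutamide and 187, 180 and 178 CPM with DHT, above every sample without JQ-1 in CSS. The rises were 2.11-fold (log2 1.08, SE 0.11, edgeR adjusted p = 1.1e-11), 1.66-fold and 1.46-fold. PYCR1 fell to 78.0, 55 and 64.6 CPM alone, 75.8, 85.6 and 78.5 CPM with enzalutamide and 79.2, 70.8 and 80.6 CPM with DHT. Its falls were 2.95-fold, 3.49-fold and 5.41-fold (edgeR adjusted p = 1.47e-16, 5.8e-12 and 2.72e-21), and the JQ-1 groups overlapped each other whatever ligand was present. SHMT2 stood at 121, 124 and 141 CPM, 129, 125 and 152 CPM, and 126, 116 and 117 CPM in the JQ-1 groups in the same order, with log2 fold changes of -0.25, -0.60 and -1.16. PSAT1 stood at 64.0, 65.5 and 67.5 CPM, 94.8, 76.4 and 75.4 CPM, and 50.4, 61.2 and 51.3 CPM (-0.55, -0.64 and -1.20). Without JQ-1 it stood at 131, 114 and 135 CPM with enzalutamide and 137, 101 and 131 CPM with DHT, above all samples with JQ-1 added. PHGDH stood at 366, 398 and 344 CPM with vehicle and 305, 300 and 288 CPM with JQ-1, and fell in all 3 settings (-0.34, -0.59 and -0.70). JQ-1 took it from 457, 409 and 388 to 249, 287 and 304 CPM on enzalutamide and from 396, 404 and 449 to 249, 261 and 274 CPM on DHT, again without overlap. PSPH, MTHFD2 and ALDH18A1 did not pass from counts with JQ-1 alone and fell on both ligands, by 0.69 to 1.37 on the log2 scale. From FPKM these 3 genes fell with JQ-1 alone as well (-0.393, -0.421 and -0.299, limma adjusted p = 3.5e-05, 7.34e-05 and 0.000609). ALDH18A1 went from 149, 126 and 117 to 76.8, 71.8 and 88.5 CPM on enzalutamide and from 162, 127 and 169 to 75.6, 76.9 and 106 CPM on DHT. With enzalutamide and JQ-1, PSPH stood at 27.9, 34.4 and 29.3 CPM and MTHFD2 at 57.9, 58.1 and 63.1 CPM, below every sample with enzalutamide alone. With DHT and JQ-1, PSPH stood at 24.0, 16.3 and 15.7 CPM and MTHFD2 at 53.9, 61.2 and 59.2 CPM.

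Of the transporters, SLC1A5 and SLC7A11 fell in all 3 settings from counts. SLC1A5 stood at 45.2, 46.3 and 58.8 CPM with JQ-1 alone, 65.8, 64.2 and 66.2 CPM with enzalutamide and JQ-1, and 56.9, 54.4 and 57.1 CPM with DHT and JQ-1. The falls were 2.33-fold, 2.82-fold and 4.87-fold (edgeR adjusted p = 8.3e-12, 1.62e-10 and 1.63e-19). SLC7A11 stood at 37.1, 28.5 and 43.3 CPM, 67.8, 58.8 and 51.6 CPM, and 66.8, 50.4 and 61.3 CPM in the same order, and fell by 0.42, 1.03 and 0.96 on the log2 scale. With JQ-1 beside a ligand it lay below every sample of that ligand alone, and enzalutamide replicate 3 with JQ-1 (51.6 CPM) and DHT replicate 2 with JQ-1 (50.4 CPM) fell below the highest vehicle sample. SLC3A2 rose with JQ-1 alone to 86.6, 80.1 and 84.8 CPM (0.35), did not pass on enzalutamide (0.19), and fell on DHT to 89.1, 74.2 and 80.6 CPM (-0.46). SLC1A4 did not pass from counts in any setting, but from FPKM all 5 transporters, SLC1A4 included, fell when JQ-1 was added to DHT. SLC7A5 was too low in JQ-1 samples to be tested from counts. It held 3, 1 and 3 reads over the 3 libraries with JQ-1 alone, with enzalutamide and with DHT, against 37, 39 and 23 in their controls. The ratios were 0.0689 (95% exact interval 0.0136 to 0.218), 0.0309 (0.000762 to 0.182) and 0.115 (0.0221 to 0.381), for counting error. From FPKM it fell in all 3 settings (-1.41, -1.30 and -0.99).

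Of the 12 synthetases 7 fell from counts with JQ-1 alone, 11 on enzalutamide and 12 on DHT, and from FPKM 11, 12 and 12 fell. IARS stood at 81.2, 90 and 80.7 CPM, 81.8, 77.2 and 88.5 CPM, and 104, 100 and 79.9 CPM in the JQ-1 groups, with falls of 1.79-fold, 2.78-fold and 2.80-fold. TARS stood at 148, 142 and 144 CPM, 159, 162 and 140 CPM, and 190, 180 and 226 CPM, with log2 fold changes of -0.88, -1.16 and -1.23. YARS stood at 77.4, 64.9 and 68.1 CPM, 91.8, 84.8 and 85.4 CPM, and 92.6, 91.2 and 92.7 CPM (-0.78, -0.91 and -1.28). In these 3 genes every JQ-1 sample lay below every vehicle sample. LARS stood at 163, 164 and 158 CPM with vehicle and 108, 95.3 and 101 CPM with JQ-1 alone, and fell by 0.69, 1.21 and 1.07 on the log2 scale. On enzalutamide it went from 217, 191 and 186 to 88.8, 92.5 and 78.5 CPM and on DHT from 210, 185 and 183 to 101, 81.0 and 97.0 CPM. MARS stood at 83.3, 94.0 and 91.1 CPM, 93.8, 87.9 and 90.8 CPM, and 95, 101 and 103 CPM (-0.61, -1.01 and -1.13). LARS and MARS, too, lay below vehicle in every JQ-1 sample. GARS, with 121, 105 and 118 CPM with JQ-1 alone, did not pass there from counts (-0.20) and fell on enzalutamide to 142, 134 and 127 CPM (-0.63) and on DHT to 145, 130 and 154 CPM (-0.93). From FPKM GARS fell with JQ-1 alone too (-0.326, limma adjusted p = 0.00027). WARS stood at 87.1, 89.4 and 86.5 CPM with JQ-1 alone, did not pass there from counts (0.024), and fell on enzalutamide (-0.31) and on DHT, to 108, 83.7 and 108 CPM (-0.72). CARS fell in all 3 settings (-0.40, -0.28 and -0.89), as did AARS (-0.20, -0.29 and -0.72), and NARS fell on both ligands (-0.59 and -0.45). With JQ-1 alone NARS did not pass from counts and fell from FPKM (-0.515, limma adjusted p = 1.2e-05). On DHT, JQ-1 took CARS from 168, 167 and 171 to 82.7, 95.9 and 99.1 CPM and AARS from 426, 410 and 453 to 286, 255 and 254 CPM. On enzalutamide it took NARS from 206, 197 and 192 to 139, 138 and 122 CPM, and none of these 3 pairs of groups overlapped. SARS stood at 199, 211 and 200 CPM with vehicle and 227, 211 and 230 CPM with JQ-1 alone, and its change passed from counts on DHT only (-0.25). EPRS fell on enzalutamide (-0.21) and on DHT (-0.33).

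Whether JQ-1 changed the size of the ligand response was tested as an interaction. For DHT, the log2 response with JQ-1 present was lower for 24 of the 36 genes and higher for 1, where 6.55% of 11572 genes were lower and 5.79% higher. Counts and FPKM agreed for 24 genes, 23 lower and 1 higher, where 11.5% of all genes did. On FPKM limma called 29 lower and 2 higher, where it called 2827 lower and 3115 higher of 12469 genes. DESeq2 called 14 lower and 0 higher, and edgeR at an unadjusted p under 0.05 gave 27 and 1, both without a share over all genes. All 8 enzymes and 10 of 12 synthetases were among the 24. The difference was -1.06 for SLC1A5 (SE 0.17, edgeR adjusted p = 7.11e-06), -0.98 for PSPH, -0.92 for SHMT2 and -0.88 for PYCR1. It was -2.47 for CHAC1 (SE 0.68), which rests on the low counts given above. ATF4 differed by -0.60 (SE 0.12, edgeR adjusted p = 0.00023). With JQ-1 present, ATF4 stood at 174 to 186 CPM without DHT and 188 to 204 CPM with it. VLDLR was the gene with a higher DHT response (0.76, edgeR adjusted p = 0.038). For enzalutamide, ALDH18A1 (-0.64) and IARS (-0.63) were lower and none was higher by edgeR, where 0.404% of 11625 genes were lower and 0.49% higher. FPKM gave the same calls for those 2, where 0.783% of all genes had the same call by both. At an unadjusted p under 0.05 edgeR gave 13 lower and 1 higher, and DESeq2 called 0 and 0, both without a share over all genes. On FPKM limma called 18 and 2, where it called 1379 lower and 931 higher of 12454 genes. Without replicate 2 of the enzalutamide group, of the JQ-1 group or of the group with both, neither passed.

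A further list of 63 genes of the pathway is given by counts from edgeR, read against the shares of all genes. Of the 63, limma on FPKM called 33 higher and 1 lower with enzalutamide in CSS, and 37 and 8 with DHT. With JQ-1 alone, on enzalutamide and on DHT it called 9, 8 and 10 higher and 39, 45 and 45 lower. Its numbers over all genes are given with these comparisons above. The values that follow are from edgeR. With enzalutamide in CSS 8 of 57 rose (4.38% of all genes), led by MTHFD1L, a mitochondrial formate enzyme (log2 1.02), SLC7A1, an arginine transporter (0.77), STC2, a secreted glycoprotein (0.77), and GPT2, a mitochondrial alanine aminotransferase (0.70). With DHT 26 of 56 rose and 1 fell (19.4% and 18.1% of all genes), led by SLC43A1, an amino acid transporter (2.14), GLUL, the glutamine synthetase (1.39), VEGFA (1.28) and MTHFD1L (1.25). JQ-1 alone lowered 20 of 56 and raised 6 (23.9% and 22.8% of all genes). On enzalutamide it lowered 27 and raised 5 (23.2% and 22%), and on DHT it lowered 28 and raised 7 (28% and 26.7%). MTHFD1L fell by log2 values of -1.99 with JQ-1 alone and -2.91 on enzalutamide. On DHT it held 4 reads against 92, a scaled ratio of 0.0383 (95% exact interval 0.0102 to 0.102, for counting error). NUPR1, a stress-induced cofactor, fell in all 3 settings (log2 -3.0, -2.34 and -3.46), and so did SLC43A1 (-2.04, -2.06 and -2.45). Of 15 mitochondrial synthetases tested, 4 rose with DHT and 4 fell with JQ-1 added to DHT, against 19.4% and 28% of all genes. In FBS 3 of 62 rose and 21 fell with enzalutamide in V16D (18.2% and 19.3% of all genes), and 1 rose and 3 fell in MR49F (3.86% and 4.62%). Between the lines 18 of 62 were higher and 24 lower in MR49F (31.9% and 31.8% of all genes), with a median log2 fold change of -0.069. NUPR1 (1.26) and GDF15, a stress-induced cytokine (1.03), were among the higher and EIF2AK4, the gene of GCN2 (-0.94), among the lower.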

How the data were processed

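Messenger RNA of 30 samples was sequenced as single-end reads of 50 bases from a strand-specific library kit. The authors aligned the reads to hg19 with TopHat2 2.0.9, counted reads per gene with HTSeq, and computed FPKM with Cufflinks 2.1.1. They deposited a table of raw counts and a table of FPKM for each sample. Rows of the count tables that name no gene were left out of the library sizes; they held 20.2 to 25.31% of the reads in FBS for reads on no gene, and 92.2 to 94.78% in CSS. How reads with several alignments were handled is not given in the sources used here.

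Counts were tested with edgeR 4.0.16 (quasi-likelihood, TMM scaling, filterByExpr at 10 counts per gene and 15 over its samples) in R 4.3.3, separately for each comparison, and p-values were adjusted by Benjamini-Hochberg over all genes tested, with a threshold of 0.05. FPKM values of a symbol were summed and tested with limma 3.58.1 on log2(FPKM + 1), over genes with at least 1 FPKM in at least 3 samples. Fold changes on that scale understate those of low genes. CPM were TMM-scaled within FBS and within CSS. Alternatives were DESeq2 1.42.0, its size factors, other filters, a pseudocount of 0.1, all groups in 1 fit, a replicate block and leaving out each sample. For DESeq2 and for unadjusted p-values, the share over all genes is not given. Requiring a call from both counts and FPKM was added after the data were seen. Scripts were tested on simulated data. The 36 genes and the further lists were chosen with earlier results of these data known. All 36 may be named, with values in every sample for those that passed with a 1.5-fold change. The rule also asked for such values of genes that passed in opposite directions in different comparisons, and in FBS these are given for some genes only. From the further list up to 4 genes per comparison may be named, those that passed with the largest change, and not all of these are printed.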

Additional observations from a re-analysis of the deposited data

Results flagged for a closer look

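The enzalutamide response differed between the lines in FBS, by an interaction term in edgeR, for 9 of the genes. On the log2 scale MR49F minus V16D was 0.468 for VLDLR, 0.455 for SLC7A11, 0.436 for ATF3, 0.325 for DDIT4, 0.312 for PSAT1, 0.285 for SLC3A2, 0.248 for MTHFD2, 0.234 for PSPH and 0.214 for SLC1A5.

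The enzalutamide response of MR49F differed between the sera, by the same kind of term, for 17 genes. CSS minus FBS was 1.07 for SLC7A11, 0.761 for SLC1A5, 0.772 for ATF4 and -0.476 for DDIT4. Among the enzymes it was 0.798 for MTHFD2, 0.704 for PSPH, 0.571 for PYCR1, 0.533 for SHMT2, 0.476 for ASNS and 0.426 for ALDH18A1. Among the synthetases it was 0.735 for GARS, 0.618 for TARS, 0.575 for YARS, 0.567 for IARS, 0.461 for MARS, 0.404 for AARS and 0.373 for NARS. Serum, experiment and depth cannot be told apart here.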

How the results depend on the processing

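Counts of the 36 genes that passed, in either direction, were compared across settings. DESeq2 gave 9 for enzalutamide in CSS, 14 for the DHT by JQ-1 interaction and 0 for the enzalutamide by JQ-1 interaction. Fitting all groups of an experiment together gave 11 for enzalutamide in V16D and 1 for the enzalutamide by JQ-1 interaction. limma on log2(FPKM + 1), on log2(FPKM + 0.1) and without a filter gave 9, 8 and 8 for enzalutamide in V16D, 2, 2 and 1 in MR49F in FBS, 31, 32 and 32 in CSS, 18, 18 and 18 for DHT against enzalutamide, 3, 2 and 2 for the line interaction, and 20, 17 and 20 for the enzalutamide by JQ-1 interaction. Leaving out 1 sample gave 15 to 21 for V16D, 1 to 10 for MR49F in FBS, 26 to 31 between the lines, 9 to 17 for enzalutamide and 23 to 27 for DHT in CSS, 6 to 8 for DHT against enzalutamide, 19 to 22 for JQ-1 alone, 25 to 29 on enzalutamide and 32 to 33 on DHT. For the interactions the ranges were 3 to 12 (line), 16 to 18 (serum), 17 to 25 (DHT by JQ-1) and 0 to 4 (enzalutamide by JQ-1). The causes were not tested.

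Samples with the same replicate number did not deviate together on average (mean correlation 0.00627 in FBS and 0.0135 in CSS). In CSS the single values ran from -0.158 to 0.171, and from -0.164 to 0.175 between samples with different numbers. These values show no pairing by number and cannot exclude it. With the replicate number as a block the counts in the same order were 21, 4, 29, 20, 27, 8, 23, 29 and 33, and 9, 18, 25 and 2 for the interactions.

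Of the 245 single-gene calls from counts, 197 kept direction and call with DESeq2 and 48 lost the call, and with its size factors 245 kept both. With limma on FPKM 3 of these calls, DDIT3 with DHT and with JQ-1 on DHT and ATF5 with JQ-1 on DHT, had the opposite sign in each of the 3 settings. A further 10 values that did not pass from counts had the opposite sign and passed from FPKM with a pseudocount of 1. In the order of settings used above, DDIT3 changed sign with DHT (-0.377, -0.397 and -0.377), against enzalutamide (-0.565, -0.594 and -0.565), with JQ-1 alone (0.457, 0.475 and 0.457) and on DHT (0.382, 0.403 and 0.382). ATF5 did so for DHT against enzalutamide (-0.19, -0.203 and -0.19) and with JQ-1 alone (0.308, 0.327 and 0.308), on enzalutamide (0.359, 0.379 and 0.359) and on DHT (0.131, 0.14 and 0.131). The others were SLC1A4 with DHT (0.337, 0.404 and 0.337), EPRS (-0.108, -0.11 and -0.108) and WARS (-0.123, -0.126 and -0.123) with JQ-1 alone, VLDLR with JQ-1 alone (0.123 with a pseudocount of 1 and the filter), and SESN2 in the serum interaction (-0.266, -0.293 and -0.266). CHAC1 and SLC7A5 rested on few reads in CSS.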
